A study of Homo sapiens with 6 samples.

Results

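The interferon genes examined here are 9 named genes: the guanylate-binding protein gene GBP2, the transcription factor genes STAT2, IRF9 and IRF1, and the interferon-stimulated genes ISG15, IFIT1, IFITM3, IFI6 and IFI27. They were matched by Ensembl identifier and symbol among the 57820 genes of the count files. They were selected on, or with knowledge of, their fold changes between the groups compared here, so that comparison is a description and no p-value is given for the 9 genes. All 9 genes passed the filter on low counts, which kept 16006 genes.

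Total RNA was sequenced from C4-2B-ENZR cells. This is an established human line of prostate cancer that is resistant to enzalutamide, a medicine for that cancer. They were transfected with an siRNA against RUVBL1 (3 libraries) or with a negative-control siRNA (3 libraries). Both groups are the same cell line grown in the same medium, the labels name no interferon or drug treatment, and they do not say whether the replicates were separate cultures. The spread between libraries may therefore be technical. RUVBL1 is an AAA+ ATPase that works in chromatin-remodelling and protein-assembly complexes.

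Interferons are secreted proteins that warn cells of infection. Type I interferons bind IFNAR1 and IFNAR2, whose kinases JAK1 and TYK2 activate STAT2, which joins IRF9 in a complex that binds a DNA element called ISRE. Type II interferon binds IFNGR1 and IFNGR2, which act through JAK1 and JAK2 on an element called GAS, and one of the genes it induces is IRF1, itself a transcription factor. Tumour cells in culture can transcribe many of the target genes at a low level with no interferon added.

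The elements are shown first because most of the members carry one of them near their start. Promoters were taken from RefSeq (GRCh38.p14), from 250 bases before to 50 bases after the start of each gene, and 8 of the 9 members were matched, all but GBP2. The ISRE was searched on both strands as GAAA, 2 bases of any kind and GAAA again, and the GAS as TTCNNNGAA, which reads the same on both strands. An ISRE match was found for 5 members and a GAS match for 3, and STAT2 had neither. Of 35116 promoter windows of 300 bases, 3.57% held an ISRE match and 7.66% a GAS match. The stretches that hold the matches are printed 5′ to 3′ on the strand of the gene, all of them before the start, with the matched letters in capitals. ISG15, IFIT1, IFI6, IFITM3 and IFI27 held ISRE matches, in ISG15 as a pair that shares letters and in IFI27 as a pair bridged by a GAS match. IRF1 and IRF9 each held 1 GAS match.
ISG15 (chr1:1013369-1013414, + strand): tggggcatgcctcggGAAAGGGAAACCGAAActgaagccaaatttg
IFIT1 (chr10:89392492-89392544, + strand): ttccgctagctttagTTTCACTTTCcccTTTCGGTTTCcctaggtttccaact
IFI6 (chr1:27672261-27672363, - strand): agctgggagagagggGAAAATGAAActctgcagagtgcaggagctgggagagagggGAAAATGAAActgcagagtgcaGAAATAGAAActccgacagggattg
IFITM3 (chr11:320871-320927, - strand): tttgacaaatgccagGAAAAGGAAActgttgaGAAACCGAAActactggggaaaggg
IFI27 (chr14:94110613-94110665, + strand): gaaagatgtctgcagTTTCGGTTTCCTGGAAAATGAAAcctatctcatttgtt
IRF1 (chr5:132490874-132490912, - strand): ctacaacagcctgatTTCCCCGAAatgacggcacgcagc
IRF9 (chr14:24161187-24161225, + strand): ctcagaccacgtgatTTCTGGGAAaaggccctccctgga
A match is a run of letters and not a measured binding site.

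The libraries held between 18985542 and 25697804 counts with RUVBL1 siRNA and between 24720504 and 36054489 counts with control siRNA. Values below are normalized counts, that is counts scaled to an equal effective library size after TMM scaling. RUVBL1 itself was at 2725, 2618 and 2710 normalized counts with RUVBL1 siRNA and at 4681, 4654 and 4758 with control siRNA, so the cells kept 57.1% of the control level. The 8 luminal prostate markers checked were all present, with a summed level of 96040 to 99280 normalized counts with RUVBL1 siRNA and 114400 to 116700 with control siRNA. Of these, 5 fell and 0 rose, beside 23.1% and 19.1% of all tested genes. KLK2, FOLH1, KRT8 and KRT18 were among those that fell. The lowest log2 fold change was -0.49 and the median over the 8 was -0.20. With library totals only 4 markers fell and 2 rose, beside 14.4% and 31.1% of all tested genes. Their part in the results below was not tested. KLK3, which encodes prostate-specific antigen, had 11420 ± 327 normalized counts with RUVBL1 siRNA and 11510 ± 147 with control siRNA (SD, n = 3 each). Of 11 markers of immune, endothelial, stromal and basal cells, 10 had a row and 2 passed the filter (COL1A1 and VWF). CD3E, COL1A2, DCN and KRT5 were at 0 in all 6 libraries, and the sum of the list was 273.8 to 307 normalized counts with RUVBL1 siRNA and 271.7 to 296.1 with control siRNA. The 2 replicate 1 libraries stood apart. Of 14127 genes with at least 20 counts in each library of replicates 2 and 3, 542 were at 0 in both of them, but no member and no other interferon gene examined here was among these. Fold changes are therefore given with and without replicate 1.

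GBP2 was the member that differed most between the groups, at 40.8% of its control level. The other 8 members differed little. ISG15 was lower with RUVBL1 siRNA by 0.16 on the log2 scale, and the fold changes of STAT2, IFIT1, IRF1, IRF9, IFI6 and IFITM3 were all under 0.2 in size. IFI27 was barely detected. In edgeR's quasi-likelihood fit across all genes, 2 of the 9 members (GBP2 and ISG15) passed an adjusted p of 0.05, both lower, beside 42.2% of all tested genes in either direction and 23.1% lower. The groups did not overlap for 3 members (GBP2, ISG15 and IFIT1), beside 52.6% of all tested genes. The median log2 fold change of the 9 members was -0.03, against 0.01 for all tested genes. With libraries scaled by total counts only, 3 members were called higher and 1 lower, beside 45.5% of all tested genes (31.1% higher and 14.4% lower). With the replicate block, 1 was called higher and 2 lower, beside 49.0% of all genes (23.4% higher and 25.6% lower). Without replicate 1, 0 were called higher and 2 lower, beside 45.1% of all genes (20.9% higher and 24.2% lower). Since this contrast chose the members, nothing is read from these shares.

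**Figure D1:**
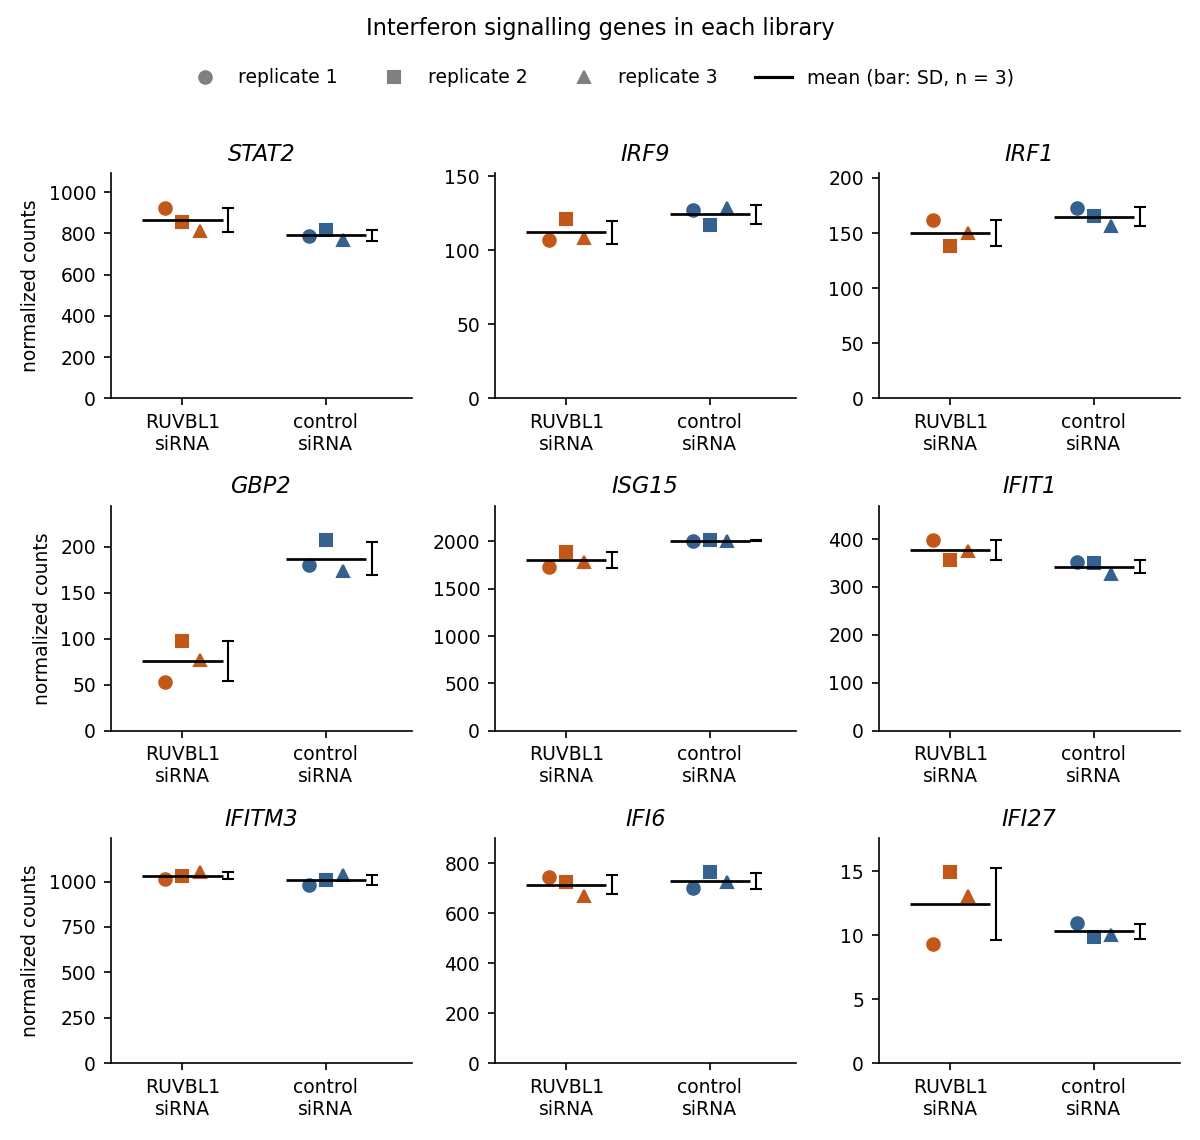
Normalized counts (linear axis from 0) of the 9 members in each RUVBL1 siRNA and control siRNA library, with the mean as a line and the SD as a bar (n = 3). GBP2 lies between 53.4 and 97.4 with RUVBL1 siRNA and between 173.6 and 207.3 with control siRNA, and of the other members only ISG15 and IFIT1 have groups that do not overlap.

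GBP2 (ENSG00000162645.8) encodes an interferon-inducible GTPase that coats the membranes of intracellular pathogens. It had 53.4, 97.4 and 77.1 normalized counts with RUVBL1 siRNA and 179.7, 207.3 and 173.6 with control siRNA. Every RUVBL1 siRNA library was below every control library, and replicate 1 was the lowest of its group. Means were 76.0 ± 22.0 with RUVBL1 siRNA and 186.9 ± 17.95 with control siRNA (SD, n = 3 each), a log2 fold change of -1.29 (SE 0.198), a level 2.45-fold lower. The counts behind them were 40, 98 and 71 with RUVBL1 siRNA and 164, 273 and 190 with control siRNA. Their summed ratio was 0.414, with an exact 95% interval of 0.352 to 0.485 that covers counting error only. Replicates of the same number gave log2 ratios of -1.75, -1.09 and -1.17, and without replicate 1 the log2 fold change was -1.13. Over 15 other treatments of the data it ran from -1.51 without RUVBL1 siRNA replicate 2 to -1.10 without RUVBL1 siRNA replicate 1.

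GBP2 also varied more between replicates than the other well-counted members. Its coefficient of variation was 28.96% among the RUVBL1 siRNA libraries, where counting alone gives 12.8%, and 9.61% among the control libraries, where counting gives 7.08%. For the 7 members other than GBP2 and IFI27 it lay between 1.81% (IFITM3) and 7.83% (IRF1) with RUVBL1 siRNA. With control siRNA it lay between 0.222% (ISG15) and 5.17% (IRF9). Of the 50-base words in the annotated GBP2 transcripts, 10.2% also occur in another gene, mostly GBP7. GBP7 was counted at 0, 0 and 1.09 with RUVBL1 siRNA and at 0 in all control libraries. In bulk RNA, fewer GBP2-expressing cells and less GBP2 RNA per cell cannot be told apart.

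The transcription factor members carry the signal from the receptors to the genes. STAT2 (ENSG00000170581.9), which is activated after type I interferon, had 925.4, 855.5 and 812.7 normalized counts with RUVBL1 siRNA and 790, 818.5 and 766.5 with control siRNA. The groups overlapped, and replicate 1 was the highest with RUVBL1 siRNA. Its log2 fold change was 0.13 (SE 0.0539), or 0.07 without replicate 1 and 0.23 with libraries scaled by total counts only. It did not pass the threshold in the fit with group alone, and passed it with the replicate number as a block (0.12), with library totals only, without RUVBL1 siRNA replicate 3 (0.17) and in 2 further fits with fewer genes.

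IRF9 (ENSG00000213928.4), the DNA-binding partner of STAT2, had 106.8, 121.2 and 108.6 normalized counts with RUVBL1 siRNA and 127.1, 116.9 and 128.8 with control siRNA. The groups overlapped, and the log2 fold change was -0.15 (SE 0.123). This level is uncertain, because 43.2% of its 50-base words also lie in the overlapping gene AL136295.5 on the same strand. AL136295.5 was at 110.8, 75.5 and 95.6 normalized counts with RUVBL1 siRNA and 113.9, 94.2 and 103.2 with control siRNA.

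IRF1 (ENSG00000125347.9), the factor gene that type II interferon induces and whose GAS match is printed above, had 161.6, 138.1 and 149.9 normalized counts with RUVBL1 siRNA and 173.1, 165.5 and 156.2 with control siRNA. The groups overlapped, with a log2 fold change of -0.14 (SE 0.112). The gene C5orf56 overlaps 22.0% of its exonic bases on the opposite strand, and the strand setting of the counting is not given in the sources used here. That gene was at 81.5, 72.5 and 63.0 normalized counts with RUVBL1 siRNA and 42.7, 59.2 and 74.9 with control siRNA.

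The remaining members are effectors, and 4 of the 5 were well counted. ISG15 (ENSG00000187608.5), a ubiquitin-like protein that is joined to other proteins, had 1731, 1891 and 1784 normalized counts with RUVBL1 siRNA and 2006, 2015 and 2010 with control siRNA. All RUVBL1 siRNA libraries were below all control libraries, and the control libraries were almost equal. The log2 fold change was -0.16 (SE 0.0357), and -0.13 without replicate 1. With libraries scaled by total counts only it was -0.06 and missed the threshold. That scaling raised log2 fold changes by a median of 0.0993 over all genes.

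IFIT1 (ENSG00000185745.8), which binds viral RNA that lacks a methyl mark on its cap, had 397.9, 356.7 and 375.9 normalized counts with RUVBL1 siRNA and 351.7, 350 and 326.2 with control siRNA. The groups did not overlap, but the lowest RUVBL1 siRNA library was close to the highest control library. The log2 fold change was 0.14 (SE 0.0728), or 0.11 without replicate 1. With library totals only it was 0.24 and passed the threshold.

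IFITM3 (ENSG00000142089.11), a membrane protein that blocks the entry of viruses, had 1012, 1030 and 1050 normalized counts with RUVBL1 siRNA and 980.6, 1007 and 1035 with control siRNA. The groups overlapped and the log2 fold change was 0.03 (SE 0.0378). With library totals only it was 0.13 and passed the threshold. Of its 50-base words, 14.01% also occur in IFITM2, so some reads of these genes could be exchanged. IFI6 (ENSG00000126709.10), a mitochondrial and endoplasmic reticulum protein that restrains apoptosis, had 746.4, 724.4 and 671.4 normalized counts with RUVBL1 siRNA and 700.1, 763.8 and 725.4 with control siRNA. The groups overlapped. The log2 fold change was -0.03 (SE 0.0557), and it changed sign to 0.07 with library totals only and to 0.01 without RUVBL1 siRNA replicate 3.

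IFI27 (ENSG00000165949.8), a small mitochondrial protein of the same family as IFI6, was the member with too few counts for a modest change to show. It had 7, 15 and 12 counts with RUVBL1 siRNA and 10, 13 and 11 with control siRNA. The normalized counts were 9.35, 14.9 and 13.0 with RUVBL1 siRNA and 11.0, 9.87 and 10.1 with control siRNA, and the groups overlapped. Its mean lay just above the limit of 10 normalized counts, under which a gene was to be called too low to judge, so none of the 9 members fell under that rule. The log2 fold change was 0.28 (SE 0.424), or 0.49 without replicate 1. The summed ratio was 1.24 with an exact 95% interval of 0.749 to 2.06, which covers counting error only. The counts allow any ratio within those bounds, and the spread between libraries is not included in them. The intervals of the other members were narrower, such as 0.972 to 1.08 for IFITM3, 0.914 to 1.03 for IFI6, 0.793 to 1.03 for IRF1 and 0.784 to 1.06 for IRF9.

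**Figure D2:**
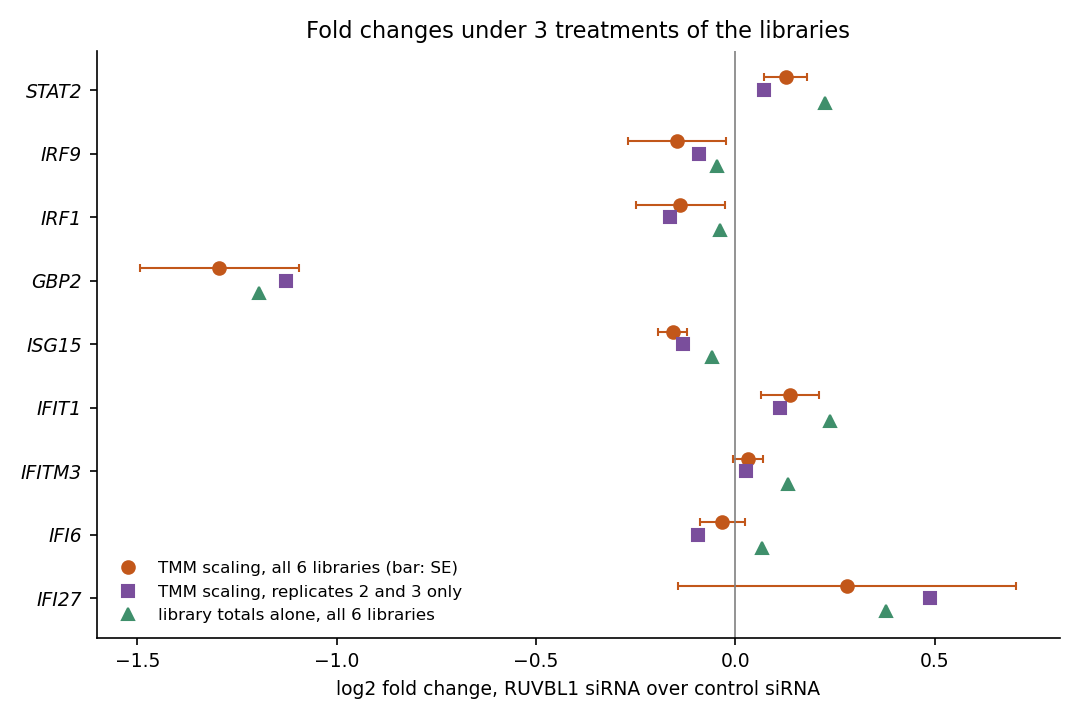
Log2 fold change of each member (RUVBL1 siRNA over control siRNA) with TMM scaling in all 6 libraries (bars, SE), in replicates 2 and 3 only, and with libraries scaled by total counts only. GBP2 lies between -1.29 and -1.13 in all 3, and IFI6 is at -0.03 with TMM scaling and at 0.07 with library totals only.

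Between genes, levels were compared per kilobase of the median transcript length in GENCODE 29. ISG15 had the highest level per length, at 2634 ± 119 normalized counts per kilobase with RUVBL1 siRNA and 2939 ± 6.52 with control siRNA (SD, n = 3 each). IFITM3 followed with 1641 ± 29.7 with RUVBL1 siRNA and 1604 ± 43.4 with control siRNA, and the pairs of values below keep that order of groups. STAT2 (971 ± 63.9 and 889.5 ± 29.2) and IFI6 (862 ± 46.6 and 881 ± 38.7) came next, and their ranges overlapped in control cells. IRF9 (171 ± 11.9 and 189 ± 9.77) and IRF1 (169 ± 13.3 and 186 ± 9.55) also overlapped each other. IFIT1 was at 116 ± 6.35 and 105.5 ± 4.399 normalized counts per kilobase. GBP2 was at 26.8 ± 7.75 with RUVBL1 siRNA and 65.8 ± 6.32 with control siRNA. IFI27 was last with 19.3 ± 4.39 and 15.98 ± 0.904. GBP2 stood clear above IFI27 in control cells, and its range overlapped that of IFI27 with RUVBL1 siRNA. The order of the middle genes depends on the length used. By the longest transcript, the control level of IFI6 was 867.8 and that of STAT2 was 241.5, so the 2 no longer lay side by side. On that scale control levels of IFIT1 (74.3) and IRF9 (67.6) were above those of GBP2 (50.7) and IRF1 (32.01).

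**Figure D3:**
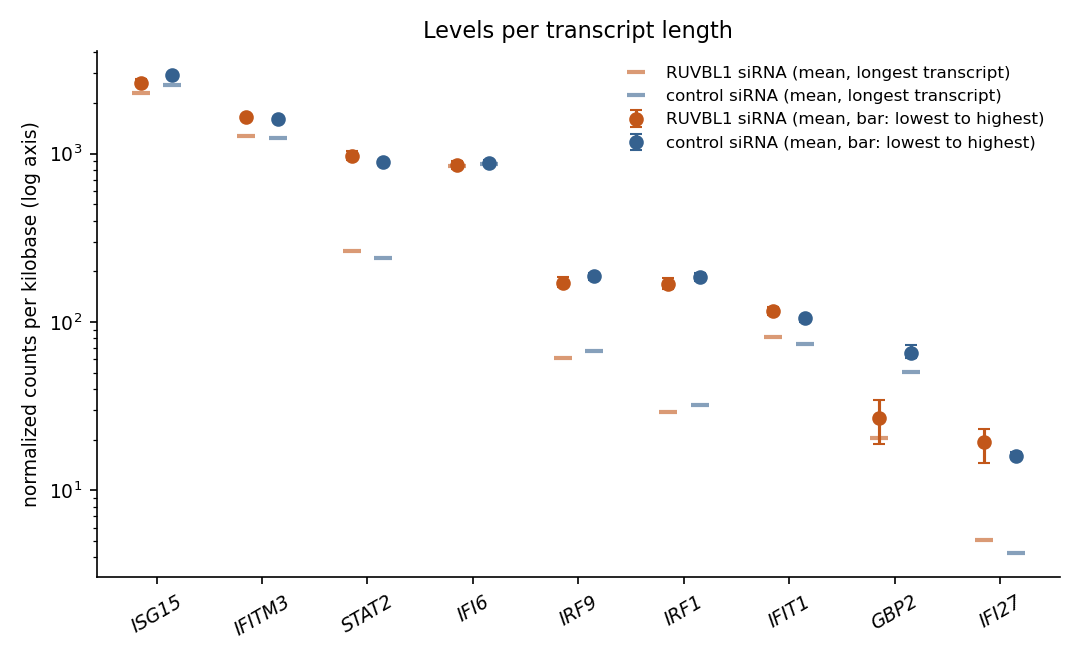
Normalized counts per kilobase (log axis) of the 9 members with RUVBL1 siRNA and with control siRNA, as means over 3 libraries with bars from the lowest to the highest, by median transcript length. Short dashes give the means by longest transcript, and GBP2 lies at 26.8 with RUVBL1 siRNA, against 65.8 with control siRNA.

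The other genes of the pathway, taken from 10 lists by role, moved in both directions. Of 143 genes, 94 passed the filter. Of these, 16 rose and 13 fell in edgeR's quasi-likelihood test, beside 19.1% and 23.1% of all tested genes. The same shares stand beside the edgeR counts of each list below. Their median log2 fold change was -0.03. Without replicate 1, 19 rose and 16 fell, beside 20.9% and 24.2% of all tested genes. With the replicate block 18 rose and 19 fell, beside 23.4% and 25.6%. With library totals only 24 rose and 11 fell, beside 31.1% and 14.4%.

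Interferon genes themselves were at or near 0. All 21 interferon genes listed failed the filter, and 19 were at 0 in all 6 libraries. A count of 0 allows up to 3 counts, which is between 0.0832 and 0.158 CPM (counts scaled to a library total) in these libraries. The others were IFNB1, with at most 1.34 normalized counts with RUVBL1 siRNA and 4.57 with control siRNA, and IFNL1, at 0 with RUVBL1 siRNA and at most 7.67 with control siRNA.

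Receptor genes for both interferon types were among those that fell. Of 8 tested receptor and kinase genes, 3 fell and 1 rose. IFNGR1, the ligand-binding chain of the type II receptor, fell to 851 ± 32.5 normalized counts with RUVBL1 siRNA, against 1161 ± 31.4 with control siRNA (SD, n = 3 each). Its log2 fold change was -0.45, with an adjusted p of 2.76e-06 in edgeR. The other chain of that receptor, IFNGR2, was not called (log2 fold change 0.07). Neither was JAK2 (0.14), which passed the threshold with library totals only (0.24). IFNAR1, of the type I receptor, fell to 1462 ± 15.9 with RUVBL1 siRNA, against 1689 ± 56.9 with control siRNA (log2 fold change -0.21, edgeR adjusted p = 0.000293). IFNAR2, its partner chain, had a log2 fold change of -0.28 (adjusted p = 0.0364 in edgeR), and the call was lost in DESeq2 (adjusted p = 0.0977) and limma-voom (0.0619), without replicate 1 (0.0847 in edgeR) and with library totals only (0.164 in edgeR). It was also lost on leaving out any library but control replicate 2 (adjusted p 0.055 to 0.118). JAK1, the kinase that both receptor types share, rose to 277.6 ± 7.195 normalized counts with RUVBL1 siRNA, against 214 ± 29.1 with control siRNA (log2 fold change 0.37, edgeR adjusted p = 0.0125). That call was lost without control replicate 1 (adjusted p = 0.0539), control replicate 3 (0.0632) or RUVBL1 siRNA replicate 3 (0.0501). TYK2, the most abundant of the list, had 1726 ± 99.3 normalized counts with RUVBL1 siRNA and 1821 ± 68.9 with control siRNA and was not called. Its log2 fold change of -0.08 turned to 0.02 with library totals only. IFNLR1, of the receptor for type III interferons, was at 0 in all libraries.

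Of 9 tested STAT and IRF genes besides the members, 3 fell and 2 rose. IRF3, which turns on interferon genes after viral sensing, fell by 0.28 (log2; edgeR adjusted p = 2.25e-05). STAT3, a factor of cytokines such as interleukin 6, fell by 0.24 and was the most abundant of the list at 2793 ± 19.4 normalized counts with RUVBL1 siRNA and 3299 ± 131.6 with control siRNA. Among 10 tested negative regulators, 3 rose and 0 fell, beside 19.1% and 23.1% of all tested genes. With library totals only 6 rose and 0 fell, beside 31.1% and 14.4%. The phosphatase genes PTPN6 and PTPN2 rose by 0.29 and 0.19 and the SUMO ligase gene PIAS4 by 0.21. PTPN11, a phosphatase gene, was the most abundant and was not called (log2 fold change 0.01, or 0.11 and called with library totals only).

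GBP5 was the other guanylate-binding protein gene that fell. Of 4 tested interferon-inducible GTPase genes besides GBP2, 1 fell and 0 rose. GBP5 had 17.4, 19.9 and 14.1 normalized counts with RUVBL1 siRNA and 37.25, 37.2 and 36.55 with control siRNA, so its groups did not overlap (log2 fold change -1.10, SE 0.273, edgeR adjusted p = 0.00578). Its counts were low. GBP1 had 16.4 ± 7.68 normalized counts with RUVBL1 siRNA and 22.6 ± 3.94 with control siRNA, a log2 fold change of -0.45. GBP3 had 128 ± 13.2 with RUVBL1 siRNA and 145.5 ± 7.005 with control siRNA, a log2 fold change of -0.18. Neither was called. GBP4, GBP6 and GBP7 failed the filter. Whether GBP2 differs from the other GBP genes in its fold change was not tested, since GBP2 was chosen for its fall.

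Genes related to the small effectors either rose or were not called. Of 8 tested relatives of IFIT1, IFITM3, IFI6 and IFI27, 2 rose and 0 fell, against 3 and 0 without replicate 1. The gene added without replicate 1 was IFI27L2 (log2 fold change 0.83, edgeR adjusted p = 0.00816). In all 6 libraries it was at 0.54 and was not called (edgeR adjusted p = 0.15). IFITM1 had 16.02, 20.9 and 14.1 normalized counts with RUVBL1 siRNA and 2.19, 5.32 and 2.74 with control siRNA (log2 fold change 2.24, SE 0.522, edgeR adjusted p = 0.00402), a low level in both groups. IFI27L1 rose by 0.35 (edgeR adjusted p = 0.0098), a call that leaving out RUVBL1 siRNA replicate 2 took away (adjusted p = 0.0518). IFIT2, IFIT3 and IFIT5 had log2 fold changes of 0.02, 0.30 and 0.13, and IFITM2 and IFITM10 of 0.28 and -0.81, and none of these was called. Leaving out control replicate 2, control replicate 3 or RUVBL1 siRNA replicate 1 turned IFIT2 to -0.016, -0.0244 and -0.0238.

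Antiviral effectors were split. Of 30 tested, 6 rose and 4 fell. ZC3HAV1, which encodes a zinc finger protein that binds viral RNA, fell to 1582 ± 34.7 normalized counts with RUVBL1 siRNA, against 2211 ± 82.8 with control siRNA (log2 fold change -0.48, edgeR adjusted p = 3.58e-07). PARP9, an ADP-ribosyltransferase family gene, fell by 0.26 (edgeR adjusted p = 0.000716). PML and SP100, which encode parts of the same nuclear bodies, rose by 0.53 and 0.42 (edgeR adjusted p = 3.55e-05 and 0.000178). ADAR, the RNA-editing enzyme gene, was the most abundant at 2785 ± 93.05 normalized counts with RUVBL1 siRNA and 2836 ± 119.9 with control siRNA, and it was not called. Its log2 fold change of -0.03 was 0.07 with library totals only. Of 6 tested ISG15 conjugation genes, 0 passed in edgeR, DESeq2 or limma-voom, with 2, 1 and 0 at an unadjusted p under 0.05. With the replicate block USP18 rose and TRIM25 fell (edgeR adjusted p = 0.0201 and 0.0285). TRIM25, a ubiquitin and ISG15 ligase gene, was the most abundant of the list. Its log2 fold change was -0.08, or 0.02 with library totals only, and it also passed the threshold at -0.10 with no low-count filter.

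Targets of the type II branch also moved both ways. Of 10 tested, 2 fell and 2 rose. TAP1 and TAP2, the peptide transporter of antigen presentation, fell by 0.59 and 0.28 (edgeR adjusted p = 3.17e-08 and 2.87e-05). TAP1 had 1106 ± 21.7 normalized counts with RUVBL1 siRNA and 1669 ± 37.0 with control siRNA (SD, n = 3 each). WARS1, the tryptophanyl-tRNA synthetase gene, which is also a gene of the amino acid response, rose by 0.15 (edgeR adjusted p = 0.00239). NLRC5, an activator of antigen presentation genes, rose by 0.11 (edgeR adjusted p = 0.027), a call lost without control replicate 2 (adjusted p = 0.119), control replicate 3 (0.124), RUVBL1 siRNA replicate 1 (0.0943) or RUVBL1 siRNA replicate 3 (0.0571). Of 9 tested genes that sense foreign nucleic acid, 0 rose and 0 fell in edgeR, where 2 had an unadjusted p under 0.05. The counts were 0 and 0 in DESeq2, 0 and 1 in limma-voom, 0 and 2 with the replicate block, and 1 and 2 without replicate 1. TBK1, a kinase of that pathway, was the most abundant (log2 fold change 0.07) and passed with library totals only (0.16), in replicates 2 and 3 alone (0.10) and without RUVBL1 siRNA replicate 1 (0.09).

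**Figure D4:**
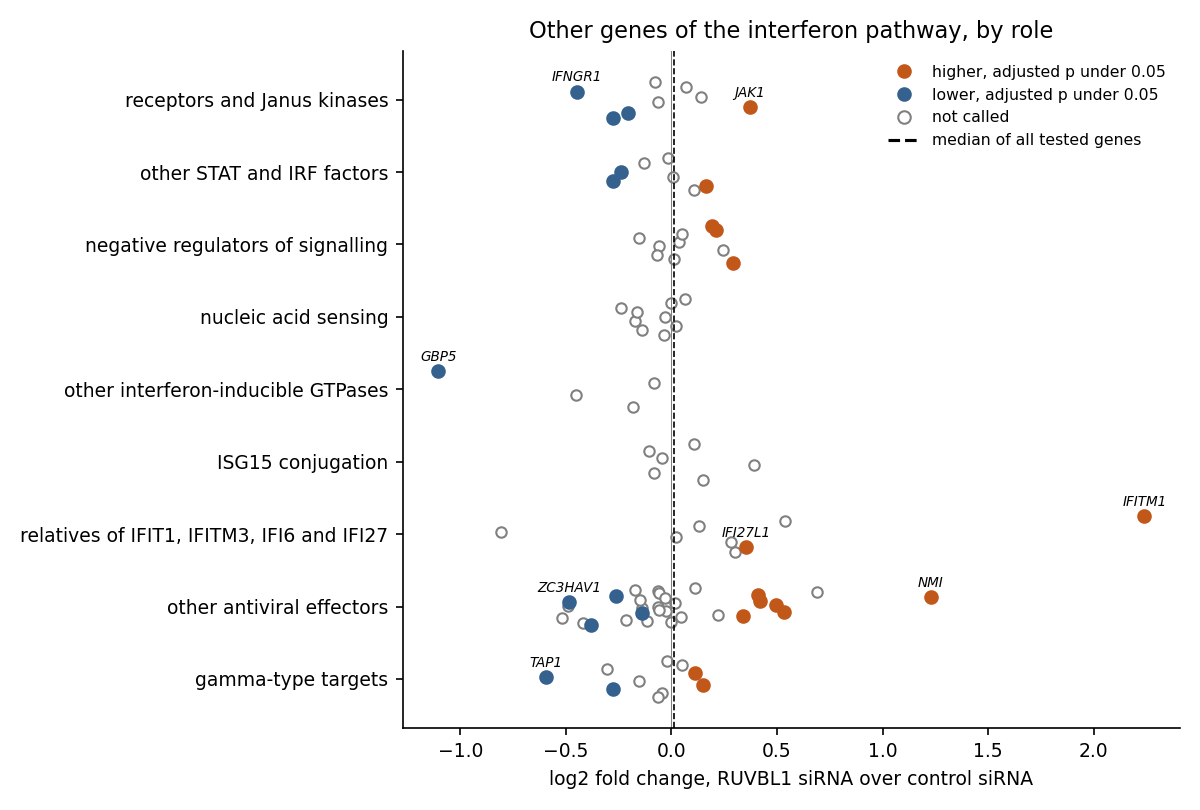
Log2 fold change (RUVBL1 siRNA over control siRNA) of 92 of the 94 tested pathway genes other than the members, by role, with filled points for an edgeR adjusted p under 0.05 and a dashed line at the median of all tested genes (0.01). Points lie on both sides in most lists, with GBP5 at -1.10 and IFITM1 at 2.24 as the farthest. IFITM1 passed the low-count filter only through its RUVBL1 siRNA libraries.

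Among genes with a mean of at least 100 normalized counts, those nearest to GBP2 in pattern over the 6 libraries were not interferon genes by name. Likeness was the Euclidean distance between log2 CPM values, centred on each gene's mean, over 11477 tested genes with a symbol and at least 100 normalized counts. GBP1 and GBP5 were below that limit and could not be found. The means of GBP5 were 17.1 with RUVBL1 siRNA and 37.0 with control siRNA. GPR137C (distance 0.582), FGFR3 (0.586), ID1 (0.600), TFRC (0.609) and TNFRSF12A (0.618) were nearest, where the median of all genes was 1.72. TFRC encodes the transferrin receptor, ID1 an inhibitor of helix-loop-helix factors and TNFRSF12A the receptor for TWEAK. GPR137C had 126 ± 4.33 normalized counts with RUVBL1 siRNA and 294 ± 4.69 with control siRNA (SD, n = 3 each). Their log2 fold changes lay between -1.32 and -1.05, and their coefficients of variation with RUVBL1 siRNA between 1.35% and 7.34%, where that of GBP2 was 28.96%. The distance includes the difference between the groups, so fold changes near that of GBP2 follow from how these genes were found.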

How the data were processed

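The members, lists and tests were chosen with earlier results of these data known. The authors deposited 1 file per library of estimated counts by gene, with no scaling to depth. Bowtie 0.12.2 and the builds mm8 and mm9, which are mouse builds and conflict with human cells and identifiers, are named per the submitters' processing notes. Counter, human build, annotation and strand setting: not given in the sources used here. Between 87.8% and 90.5% of the values were whole, and all were rounded.

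Symbols were matched by stable identifier for 51996 of 57820 genes. Of 143 pathway genes, 1 (IKBKE) had no matched row. Transcript lengths, overlaps and 50-base words came from GENCODE 29 and promoters from RefSeq. Genes were filtered with filterByExpr and tested two-sided with edgeR 4.0.16 in R 4.3.3 (TMM factors, robust quasi-likelihood fit, group alone), with Benjamini-Hochberg adjustment over 16006 genes. The SE is the size of the log2 fold change over the square root of F. Exact binomial intervals came from scipy 1.17.1. The test was checked on simulated data with a spread taken from replicates 2 and 3, so the check does not cover the shift of replicate 1. Alternatives were DESeq2 1.42.0, limma-voom (limma 3.58.1), other scalings and filters, a replicate block, replicates 2 and 3 alone, and each library left out.

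Genes named are the members, every called gene of a pathway list (at most 4, by p), its most abundant gene, and the tested GBP, IFIT and IFITM genes with JAK1 and TYK2, except for genes that are not reported here. Libraries with the same replicate number had correlated deviations from their group means (0.939, 0.819 and 0.823). Replicate 1 stood apart in both groups, so replicates 2 and 3 deviate together from those means. The correlations therefore cannot tell which libraries of replicates 2 and 3 are pairs. The fit behind the reported values has no replicate term, and the block was an alternative. The block uses the replicate numbers, which the labels do not describe as pairs. No 2 libraries were identical.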

Additional observations from a re-analysis of the deposited data

How the results depend on the processing

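Over 15 alternatives, the count of all genes called (6755) ran from 5741 to 7837, and that of the pathway genes (29) from 23 to 37. Leaving out 1 library at a time gave 5741 to 6357 genes, 23 to 30 pathway genes and 2 to 3 members. The 2 members called became 4 with library totals only (GBP2, STAT2, IFIT1 and IFITM3), and 3 with the replicate block, in which STAT2 was added and 7837 genes and 37 pathway genes were called. The block changed no other member's call. GBP2 was called in all 15 alternatives and ISG15 in all but library totals only. The members were chosen with this contrast known and the alternatives reuse the same libraries, so these calls are no independent support.

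Signs turned for values near 0. With library totals only the log2 fold changes of IFI6, ADAR, TRIM25 and TYK2 were 0.0673, 0.0733, 0.0161 and 0.0226. Replicates 2 and 3 alone gave 0.0241 for ADAR, and no low-count filter gave -0.0067 for PTPN11. Leaving out 1 library gave -0.0663 to 0.0095 for IFI6, -0.0561 to 0.00288 for ADAR, -0.0244 to 0.087 for IFIT2 and -0.0036 to 0.0176 for PTPN11. IFI27, GBP1, GBP5, IFITM1, IFITM10 and IFI27L2 failed the filter of 50 counts in 3 libraries, and that fit gives no value for them. The causes were not tested. Low counts limit the precision for IFI27, GBP5 and IFITM1.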
